A study of Mus musculus with 17 samples.

Results

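The 40 genes described here are transcripts of the cell cycle, taken by name from the deposited table of counts for mouse kidney cortex: 10 genes of S phase and DNA replication, 8 cyclins, 3 cyclin-dependent kinases, 4 inhibitors of these kinases, 13 genes of mitosis and 2 transcription factors. All 40 were among the 48795 genes of the table, and the question was whether cortices with the TRACK transgene held more proliferation transcripts than cortices without it. The table held 17 samples: 5 WT, 5 GCERAd, 3 TRACK and 4 GCERAdT. GCERAd mice carried Ggt/CreER TG/TG and ATF4 fl/fl, and received tamoxifen at 6 weeks of age on 2 days, which deletes ATF4 in the proximal tubules. There part of the Ggt1 promoter drives the recombinase, and the other cells of the cortex keep the gene. TRACK stands in the labels for a transgenic model of kidney cancer, and GCERAdT is labelled as TRACK with the ATF4 knockout. WT and GCERAd mice were fasted for 16 h before the kidneys were taken. For TRACK and GCERAdT mice, age, tamoxifen and fasting are not given in the sources used here, and neither is the transgene. For WT mice, age and tamoxifen are not given either. As background, TRACK mice are known to express a constitutively active form of HIF1α, the hypoxia-inducible transcription factor, in proximal tubule cells.

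A cell that enters the cycle first builds cyclin D with CDK4, then cyclin E with CDK2, which releases E2F factors from the retinoblastoma proteins. E2F factors turn on the genes of S phase, among them the MCM subunits that form the helicase opening the DNA. Cyclin A and cyclin B with CDK1 then carry the cell through G2 and mitosis, and their genes, with those of the spindle and centromere, peak late in the cycle. The inhibitors of the p21 and p27 family hold the cyclin kinases back. In the adult kidney few tubule cells divide, and injured tubule cells are known to re-enter the cycle or to arrest in it.

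Totals on genes were 53688512 to 71364561 counts per sample, and values below are CPM, counts scaled to library size by TMM, unless FPKM is named, which divides them by gene length as well. Xist was 149 to 421 CPM in the 5 WT samples and at most 6.10 CPM in the others, and Ddx3y, a gene of the Y chromosome, was 0 in WT and 50.2 to 79.5 CPM in the others, so the transgene and sex cannot be told apart in TRACK over WT. GCERAdT over GCERAd set libraries with Y-linked counts against each other. Atf4, the deleted gene, was 84.8 ± 10.1 CPM in WT (SD, n = 5), 65.6 ± 9.24 in GCERAd (n = 5), 83.4 ± 8.58 in TRACK (n = 3) and 91.9 ± 10.1 in GCERAdT (n = 4). On the log2 scale it was -0.37 in GCERAd over WT (SE 0.10, adjusted p = 0.0137), where SE is the standard error. It was 0.14 in GCERAdT over TRACK (SE 0.13, adjusted p = 0.559), so Atf4 counts did not tell these groups apart. Of 14 genes induced by HIF, 11 were higher in TRACK than in WT and 14 were higher in GCERAdT than in GCERAd, none lower, against 17.1% and 8.50% higher among all genes. Processed pseudogenes took either 0.0320% to 0.0380% or 0.0574% to 0.0784% of a library's counts. All 3 TRACK samples, 1 WT, 3 GCERAd and 2 GCERAdT samples lay in that higher range. GCERAd 4 and 5 lay apart from GCERAd 1 to 3 on a component with 76.3% of the variance in that group. The extraction notes give 3 to 4 mice for each cohort against 5 samples in WT and GCERAd, so that some samples may be repeat libraries of a mouse, and p-values then measure in part a technical spread.

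The cell cycle genes were in part higher in TRACK than in WT. These groups differ in Xist and Ddx3y and, but for 1 WT sample, in pseudogene range. The transgene and that range therefore cannot be fully told apart in TRACK over WT. Of 39 members with a mean of at least 10 counts, 12 were higher and none was lower by the quasi-likelihood test of edgeR (Benjamini-Hochberg over 16492 genes, threshold 0.05), against 17.1% higher and 16.2% lower among all genes tested. Their median log2 fold change was 0.54, and that of all genes was -0.01. Between GCERAdT and GCERAd, 4 members were higher and 1 was lower, against 8.50% and 10.4% of all genes, so that the share called higher was near the background, with a median log2 fold change of 0.32. Averaged over both pairs of groups, 14 members were higher and 1, Mcm6, was lower, against 15.5% and 17.0% of all genes, and the median was 0.37. TRACK over WT is a part of this average, so the average carries the differences in Xist, Ddx3y and pseudogene range too. Cdkn1a and Top2a were the members called higher in each of the pairs, and Top2a was not called in GCERAdT over GCERAd when only those groups were fitted (0.99 on the log2 scale, adjusted p = 0.0878). Bub1, a kinase of the spindle checkpoint, was under the minimum, with 0 to 0.386 CPM over all samples, and was not tested. In TRACK over WT 16 of the 39 members were higher in every sample, against 19.7% of all genes, in GCERAdT over GCERAd 3 were, against 7.84%, and in both pairs 2 were, Cdk1 and Cdkn1a, against 3.39%. WT samples were 5 against 3 TRACK samples, and the count in TRACK over WT was 5 without TRACK 1. With the pseudogene share as a covariate it was 6, of which 4 were among the 12 (Cdkn1a, Mcm2, Mcm3 and Mcm5). The shares of all genes called in these fits were not computed. The cortex is a mixture, in which more cells of a kind and more RNA per cell cannot be told apart.

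**Figure D1:**
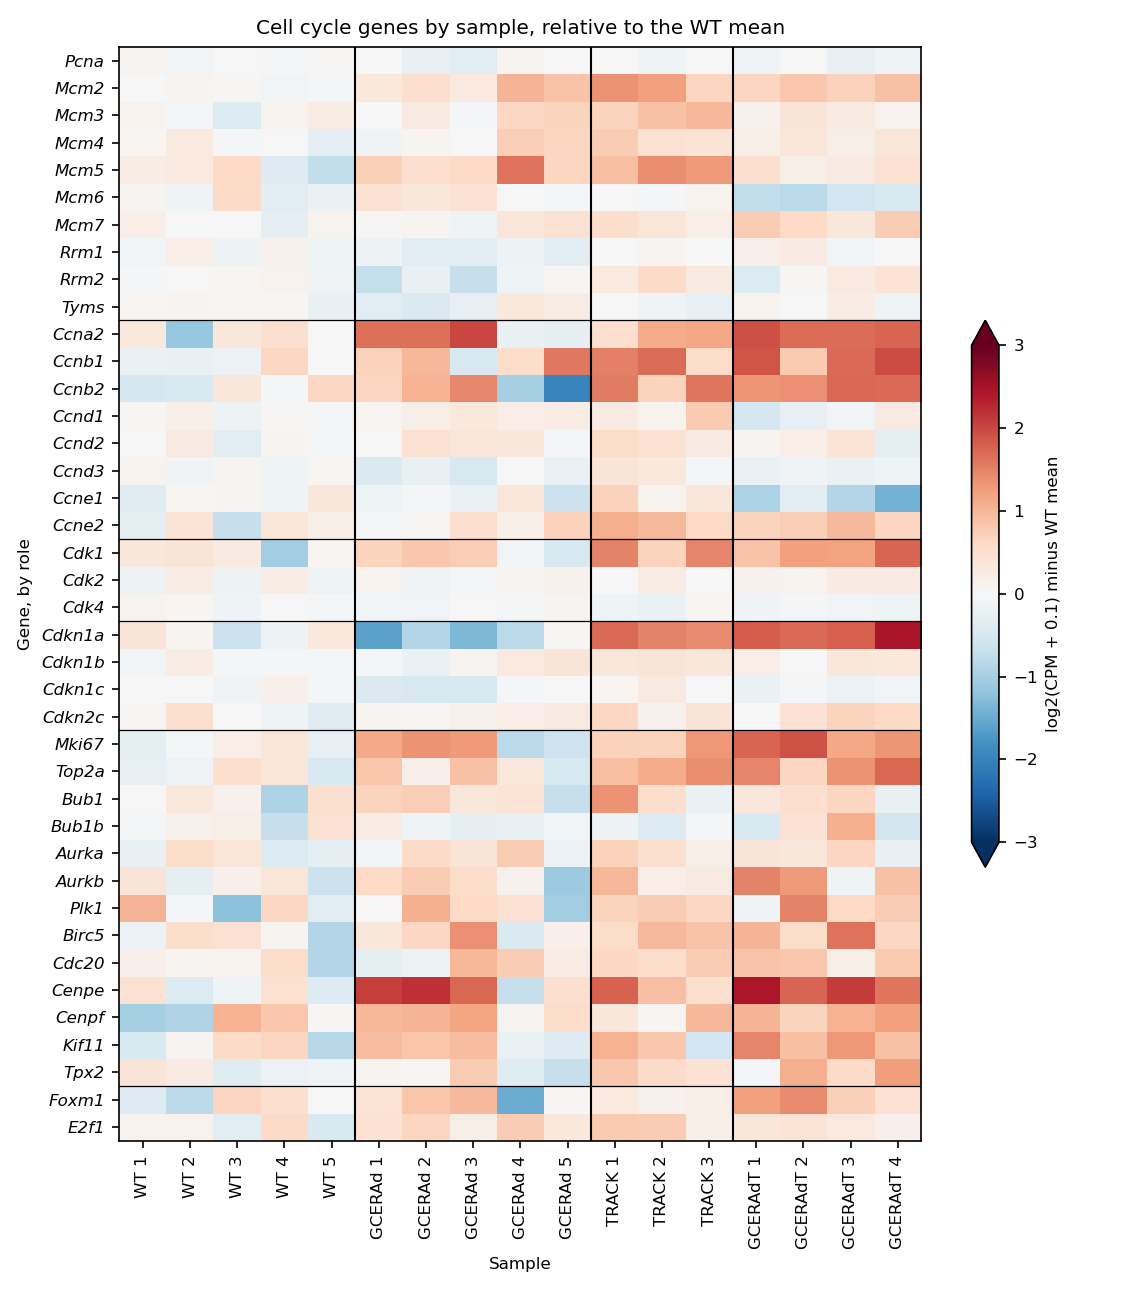
Level of each of the 40 cell cycle genes in each of the 17 samples, as log2(CPM + 0.1) minus the mean of the 5 WT samples, with red above and blue below WT and lines between groups of samples and between roles of genes. Cdkn1a is red in all 7 TRACK and GCERAdT samples and blue in most GCERAd samples, and Ccna2, Ccnb2 and Mki67 are red in GCERAd 1 to 3 and blue in GCERAd 4 and 5.

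Levels of the members spanned a wide range. Computed per length, 22 of the 40 had a mean below 1 FPKM over all samples and 6 had at least 10 FPKM. The most abundant was Ccnd1, the cyclin D1 gene, with a mean of 50.7 FPKM, followed by Cdk4, the kinase that binds it, with 17.9 FPKM. At the other end stood Bub1 with 0.0328 FPKM and Cenpf, a centromere protein gene, with 0.0418 FPKM. Every mitosis member and both cyclin B genes were below 1 FPKM in the mean, so that these genes were read from 0 to 328 counts per gene and library. Ccnb1 had 6 to 14 counts per WT library and 15 to 60 per TRACK or GCERAdT library.

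The largest change in the average of both pairs was that of Cdkn1a, on chromosome 17 (GRCm38, 29090976 to 29100727, ENSMUSG00000023067), which encodes p21, an inhibitor of cyclin kinases and a classical target of p53. It was 18, 14.5, 8.70, 12.4 and 16.9 CPM in WT 1 to 5 and 4.40, 7.38, 5.32, 7.74 and 14.0 CPM in GCERAd 1 to 5. In TRACK 1 to 3 it was 44.6, 38.5 and 36.8 CPM and in GCERAdT 1 to 4 it was 48.0, 44.5, 47.6 and 75.1 CPM. All 7 samples with the transgene lay above all 10 without it, the only member of the 40 for which this held. The share of all genes with this order was not computed. The log2 fold change of Cdkn1a was 1.50 in TRACK over WT (SE 0.30, adjusted p = 0.00171), or 2.83-fold, and 2.80 in GCERAdT over GCERAd (SE 0.30, adjusted p = 1.07e-05), or 6.94-fold. Both calls held when any 1 library of the groups compared was left out. Among the libraries of the higher pseudogene range alone the values were 1.46 (adjusted p = 0.150) and 2.77 (adjusted p = 0.0107), the first with a single WT library.

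The difference between both changes of Cdkn1a was 1.29 on the log2 scale (SE 0.43, adjusted p = 0.0463). The level in GCERAd was lower than in WT, -0.86 (SE 0.28, adjusted p = 0.0340), and that in GCERAdT was 0.43 against TRACK (SE 0.33, adjusted p = 0.482), with overlapping groups. Both calls lay near the threshold and were lost when any 1 of most libraries was left out. The adjusted p of the difference rose to between 0.0529 and 0.0964 without any 1 of 15 of the 17 libraries, WT 3 and GCERAd 5 being those whose removal kept it, and that of GCERAd over WT rose to between 0.0559 and 0.0836 without WT 1, 2 or 5 or without GCERAd 1, 2, 3 or 4. GCERAd 5 had the highest Cdkn1a of its group.

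The other 3 inhibitors differed less between groups. Cdkn1b, the gene of p27, was 44.6, 55.0, 45.3, 45.5 and 44.7 CPM in WT and 44.7, 40.7, 49.4, 57.1 and 61.1 CPM in GCERAd. It was 59.2, 61.8 and 59.5 CPM in TRACK and 53.7, 46.5, 59.8 and 58.7 CPM in GCERAdT. TRACK samples lay above every WT sample and GCERAdT samples overlapped GCERAd. Its log2 fold change was 0.35 in TRACK over WT (SE 0.12, adjusted p = 0.0272), lost without any 1 WT or TRACK library but WT 2 (adjusted p 0.0506 to 0.0864). The value in GCERAdT over GCERAd was 0.11 (SE 0.11, adjusted p = 0.538). Cdkn2c, the gene of p18, which blocks CDK4, was 11.4, 15.5, 11.0, 10.2 and 8.61 CPM in WT and 11.9, 11.4, 12.2, 12.9 and 13.5 CPM in GCERAd. In TRACK it was 17.3, 12.2 and 14.5 and in GCERAdT 11.2, 15.1, 17.8 and 17.0 CPM. The groups overlapped, and Cdkn2c was called only in the average of both pairs, with a log2 fold change of 0.34 (SE 0.11, adjusted p = 0.0294) that lost its call without WT 4 or 5, TRACK 1 or GCERAdT 3 or 4 (adjusted p 0.0502 to 0.107) and with mouse number as a block (0.0902). Cdkn1c, the gene of p57, was 17.7 to 30.2 CPM over all samples and was called in neither pair.

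Among the S phase genes, the subunits of the MCM2 to MCM7 helicase did not move as 1 block. Mcm2, Mcm3, Mcm4 and Mcm5 were higher in TRACK than in WT, Mcm6 was lower in GCERAdT than in GCERAd, and Mcm7 was higher in GCERAdT than in GCERAd. Mcm2 was 7.91, 8.24, 7.96, 7.38 and 7.69 CPM in WT and 9.76, 11.2, 9.68, 15.9 and 14.4 CPM in GCERAd. It was 19.9, 18.4 and 12.3 CPM in TRACK and 12.3, 13.8, 12.8 and 14.6 CPM in GCERAdT. Every sample of the other 3 groups lay above every WT sample. As a log2 fold change this was 1.10 in TRACK over WT (SE 0.16, adjusted p = 6.01e-05). Between GCERAdT and GCERAd it was 0.13 (SE 0.15, adjusted p = 0.602), where the 95% interval was -0.18 to 0.45.

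Mcm3 was 3.23, 2.95, 2.25, 3.25 and 3.5 CPM in WT and 3.02, 3.66, 2.88, 4.63 and 4.87 CPM in GCERAd. TRACK samples had 4.85, 5.63 and 6.10 and GCERAdT samples 3.27, 3.92, 3.62 and 3.23 CPM. TRACK samples thus lay above every WT sample, with GCERAd 4 and 5 near them. Mcm4 was 6.74, 8.04, 6.22, 6.52 and 5.29 CPM in WT and 6.05, 6.88, 6.50, 11.0 and 10.2 CPM in GCERAd. The transgene groups had 11.2, 8.90 and 8.74 CPM in TRACK and 7.33, 8.34, 7.31 and 8.36 CPM in GCERAdT. The order was alike, with GCERAd 4 and 5 again above GCERAd 1 to 3. Mcm5 was 2.42, 2.53, 3.13, 1.54 and 1.20 CPM in WT and 3.43, 2.93, 3.16, 6.52 and 3.24 CPM in GCERAd. In TRACK it was 3.93, 5.57 and 5.07 and in GCERAdT 2.95, 2.32, 2.50 and 2.84 CPM. For Mcm4 and Mcm5 too the TRACK samples lay above every WT sample. The GCERAdT samples overlapped the GCERAd samples for all 3 genes, for Mcm5 at their lower end. Their log2 fold changes in TRACK over WT were 0.86 for Mcm3 (SE 0.19, adjusted p = 0.00202), 0.55 for Mcm4 (SE 0.18, adjusted p = 0.0280) and 1.17 for Mcm5 (SE 0.29, adjusted p = 0.00442). The call of Mcm4 was lost without WT 3, WT 5 or TRACK 1 (adjusted p 0.0519, 0.0667 and 0.148), and those of Mcm2, Mcm3 and Mcm5 were kept without any 1 library. In GCERAdT over GCERAd the values were -0.12 for Mcm3, -0.05 for Mcm4 and -0.54 for Mcm5, none of which passed the test.

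Mcm6 went the other way. It was 18, 15.5, 25.4, 13.5 and 14.9 CPM in WT and 23.3, 21.6, 22.9, 16.8 and 16.3 CPM in GCERAd. It was 16.8, 16.4 and 18.3 CPM in TRACK and 10.2, 9.76, 11.3 and 12.5 CPM in GCERAdT, so that all 4 GCERAdT samples lay below all 13 others. On the log2 scale the change was -0.88 in GCERAdT over GCERAd (SE 0.16, adjusted p = 6.81e-04) and -0.65 in GCERAdT over TRACK (SE 0.18, adjusted p = 0.0427), and -0.02 in TRACK over WT (SE 0.17, adjusted p = 0.929). The first call was kept without any 1 library, and the second was lost without any 1 of TRACK 1 to 3 or GCERAdT 1 to 3 (adjusted p 0.0893 to 0.120). Mcm7 was 15.8, 13.6, 13.9, 11.1 and 14.6 CPM in WT and 14.0, 14.4, 12.7, 17.5 and 18.7 CPM in GCERAd. TRACK samples had 19.7, 17.6 and 15.7 and GCERAdT samples 23.1, 20.9, 17.3 and 23.3 CPM. Its groups overlapped, and its log2 fold change was 0.45 in GCERAdT over GCERAd (SE 0.13, adjusted p = 0.0174), a call lost without GCERAdT 1 (adjusted p = 0.0523), and 0.36 in TRACK over WT (SE 0.14, adjusted p = 0.0538).

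The difference between both transgene changes was itself called for 6 of 39 members. In GCERAdT over GCERAd 5 were lower and 1 higher than in TRACK over WT, against 10.8% and 8.70% of all genes. The share called lower was thus near the background. The 5 were Mcm2 with a difference of -0.97 on the log2 scale (SE 0.22, adjusted p = 0.00496), Mcm3 with -0.98 (SE 0.26, adjusted p = 0.0127), Mcm5 with -1.70 (SE 0.40, adjusted p = 0.00538), Mcm6 with -0.86 (SE 0.23, adjusted p = 0.0138) and Ccnd1 with -0.73 (SE 0.21, adjusted p = 0.0180). The calls of the 4 Mcm genes were kept without any 1 library, and that of Ccnd1 was lost without TRACK 3 (adjusted p = 0.0879). The 4 groups therefore had no common order for the helicase genes. Summed over Mcm2 to Mcm7, the level was 43.3 to 58.8 CPM in WT, 57.8 to 72.5 in GCERAd, 66.2 to 76.4 in TRACK and 54.8 to 64.8 in GCERAdT, with TRACK the group above every WT sample and GCERAdT overlapping WT.

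The remaining S phase members were Pcna, Rrm1, Rrm2 and Tyms. Pcna, the clamp that holds the DNA polymerase, was 30.8, 27.6, 28.9, 28.4 and 30.0 CPM in WT and 29.1, 24.9, 23.5, 30.9 and 29.5 CPM in GCERAd. It was 29.2, 26.8 and 29.4 CPM in TRACK and 27.2, 28.9, 24.8 and 26.8 CPM in GCERAdT. The groups overlapped. Its log2 fold change was -0.03 in TRACK over WT, with a 95% interval of -0.22 to 0.16, and -0.03 in GCERAdT over GCERAd, with an interval of -0.21 to 0.14, the narrowest intervals of the S phase members. Rrm1, the large subunit of ribonucleotide reductase, was 14.3, 17.3, 13.5, 16.5 and 13.6 CPM in WT and 13.5, 11.7, 12.0, 13.5 and 11.8 CPM in GCERAd. The transgene groups had 15.0, 15.7 and 15.0 CPM in TRACK and 16.7, 17.8, 14.2 and 14.8 CPM in GCERAdT. GCERAd samples lay below every sample of the other 3 groups, though by less than 0.1 CPM below the lowest WT sample. The log2 fold change was 0.34 in GCERAdT over GCERAd (SE 0.10, adjusted p = 0.0170), lost without GCERAdT 2 (adjusted p = 0.0755), and 0.02 in TRACK over WT (SE 0.11, adjusted p = 0.913). Rrm2, the small subunit, which is made in S phase, was 3.44, 3.59, 3.70, 3.83 and 3.34 CPM in WT and 2.15, 3.05, 2.19, 3.28 and 3.67 CPM in GCERAd. In TRACK it was 4.41, 5.42 and 4.34 and in GCERAdT 2.66, 3.67, 4.41 and 4.79 CPM. TRACK samples lay above all WT samples, and Rrm2 was called in the average of both pairs, with a log2 fold change of 0.42 (SE 0.14, adjusted p = 0.0269), lost without TRACK 2 or GCERAdT 4 (adjusted p 0.0816 and 0.0556). Tyms, the thymidylate synthase, was 11.1 to 18.8 CPM over all samples and was called in neither pair.

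**Figure D2:**
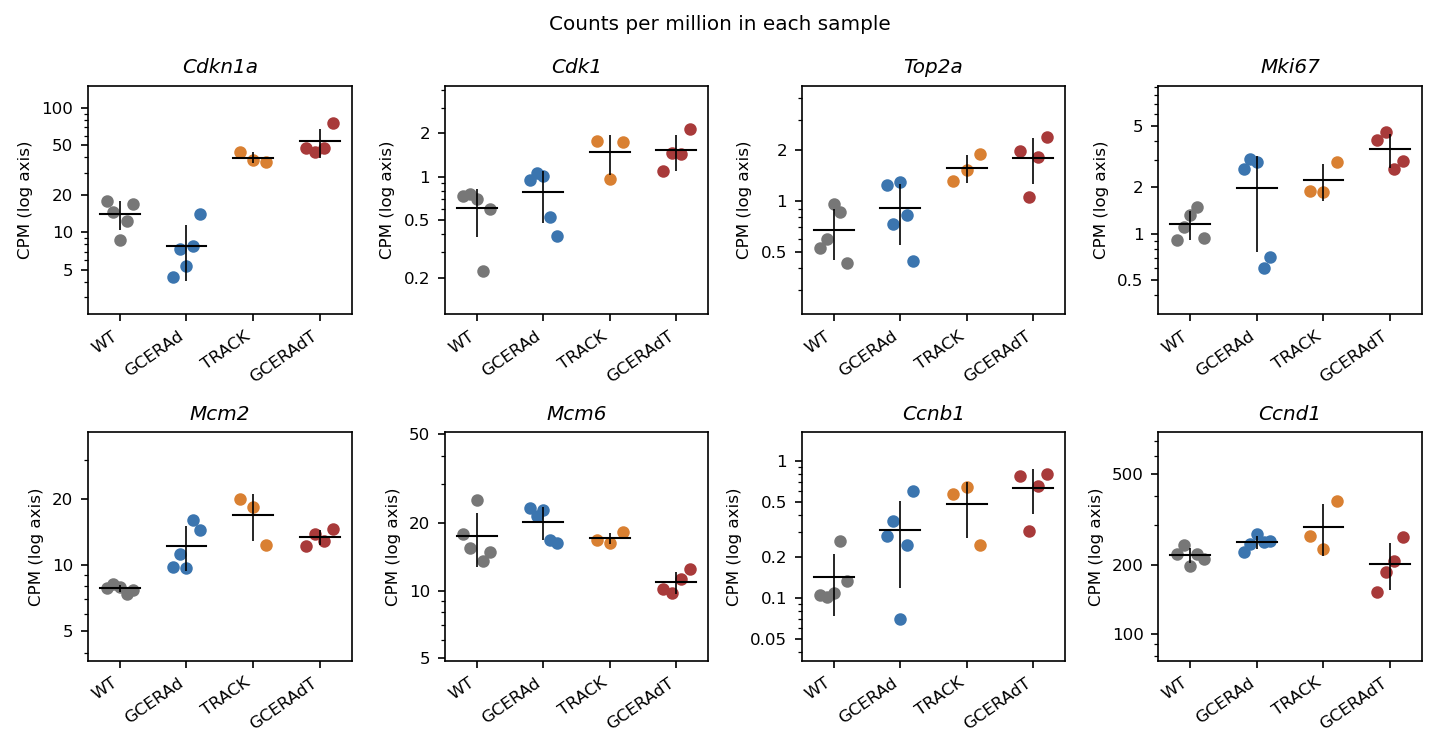
CPM of 8 cell cycle genes on log axes, with a point for each sample (5 WT, 5 GCERAd, 3 TRACK and 4 GCERAdT), a line at the group mean and a bar of ± 1 SD. Cdkn1a separates the 7 transgene samples from the other 10, Mcm6 is lowest in GCERAdT, and Mki67 of GCERAd splits into 3 samples at 2.64 to 3.07 CPM and 2 at 0.603 to 0.705 CPM.

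Of the cyclins of G1, Ccnd1 was 224, 245, 199, 224 and 212 CPM in WT and 229, 248, 275, 253 and 255 CPM in GCERAd. It was 267, 236 and 380.3 CPM in TRACK and 153, 186, 208 and 265 CPM in GCERAdT. TRACK 3 held the highest value, and GCERAdT samples ranged from below all other samples to among those of GCERAd. The log2 fold change was 0.42 in TRACK over WT (SE 0.15, adjusted p = 0.0397), which fell to 0.19 without TRACK 3 (adjusted p = 0.364) and was also lost without TRACK 1 or WT 1, 3, 4 or 5. In GCERAdT over GCERAd it was -0.31 (SE 0.14, adjusted p = 0.132), and with mouse number as a block over these groups alone it was called, at -0.33 (adjusted p = 0.0439). Ccnd2, the gene of cyclin D2, was 13.6, 16.7, 11.0, 14.5 and 13.4 CPM in WT and 13.7, 18.8, 17.7, 17.4 and 13.2 CPM in GCERAd. TRACK samples had 20.1, 19.0 and 16.5 and GCERAdT samples 14.5, 15.7, 18.2 and 11.1 CPM. Its groups overlapped. Its log2 fold change was 0.42 in TRACK over WT (SE 0.15, adjusted p = 0.0436), lost without TRACK 1 or 2 or WT 1, 3, 4 or 5 (adjusted p 0.0569 to 0.159). The value in GCERAdT over GCERAd was -0.12 (SE 0.14, adjusted p = 0.622). Ccne2, a cyclin E gene, was 0.840, 1.42, 0.611, 1.37 and 1.18 CPM in WT and 0.998, 1.07, 1.53, 1.19 and 1.75 CPM in GCERAd. The transgene groups had 2.31, 2.14 and 1.63 CPM in TRACK and 1.72, 1.81, 2.13 and 1.68 CPM in GCERAdT. TRACK samples lay above every WT sample. Its log2 fold change was 0.90 in TRACK over WT (SE 0.28, adjusted p = 0.0206), lost without TRACK 1 or 2 (adjusted p 0.0874 and 0.0659). Between GCERAdT and GCERAd it was 0.49 (SE 0.26, adjusted p = 0.215). Ccnd3 was 73.9 to 136 CPM and Ccne1, the other cyclin E gene, 0.0932 to 0.735 CPM over all samples, and neither was called in either pair. Ccne1 had opposite signs in both, 0.46 and -1.03, with a difference of -1.49 (SE 0.61, adjusted p = 0.0952).

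Of the cyclins of G2 and mitosis, Ccnb1, the cyclin B1 gene, was 0.105, 0.102, 0.108, 0.260 and 0.133 CPM in WT and 0.281, 0.366, 0.0694, 0.245 and 0.599 CPM in GCERAd. It was 0.569, 0.649 and 0.244 CPM in TRACK and 0.776, 0.307, 0.659 and 0.808 CPM in GCERAdT. Its groups overlapped through WT 4 and TRACK 3. The log2 fold change was 1.77 in TRACK over WT (SE 0.58, adjusted p = 0.0249), lost without WT 1, TRACK 1 or TRACK 2 (adjusted p 0.0516, 0.0792 and 0.101). In GCERAdT over GCERAd it was 1.03 (SE 0.52, adjusted p = 0.189). In the average it was 1.40 (SE 0.39, adjusted p = 0.0102), a call kept without any 1 library. Ccnb2, the cyclin B2 gene, was 0.225, 0.237, 0.485, 0.353 and 0.614 CPM in WT and 0.624, 0.850, 1.14, 0.132 and 0.0176 CPM in GCERAd. In TRACK it was 1.25, 0.631 and 1.30 and in GCERAdT 1.05, 1.09, 1.42 and 1.40 CPM. TRACK samples lay above every WT sample, and 4 of the 5 GCERAd samples lay below every GCERAdT sample. Ccnb2 was called in the average alone, 1.31 (SE 0.46, adjusted p = 0.0348), and lost that call without any 1 of 7 libraries (WT 1, 2 or 4, TRACK 1 or 3, GCERAdT 3 or 4) and with mouse number as a block (adjusted p = 0.0939). Ccna2, the cyclin A2 gene, was 0.102 to 0.520 CPM in WT and 1.31 to 1.60 CPM in GCERAdT, 1.29 to 1.70 CPM in GCERAd 1 to 3 and 0.264 to 0.283 CPM in GCERAd 4 and 5. In TRACK it was 0.533 to 0.896 CPM, above every WT sample, and it was called in neither pair.

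The kinase that these cyclins bind, Cdk1, was higher in every transgene sample of both pairs. It was 0.735, 0.763, 0.701, 0.223 and 0.598 CPM in WT and 0.951, 1.07, 1.01, 0.527 and 0.388 CPM in GCERAd. It was 1.76, 0.964 and 1.74 CPM in TRACK and 1.10, 1.45, 1.43 and 2.13 CPM in GCERAdT. As a log2 fold change this was 1.30 in TRACK over WT (SE 0.40, adjusted p = 0.0188), lost without TRACK 1 or 3 (adjusted p 0.0776 and 0.0684). The value in GCERAdT over GCERAd was 0.95 (SE 0.37, adjusted p = 0.0835), above the threshold although the groups did not overlap. Averaged over both pairs it was 1.12 (SE 0.27, adjusted p = 0.00427), or 2.18-fold, and this call was kept without any 1 library. The kinases of G1, Cdk2 with 7.71 to 10.3 CPM and Cdk4 with 52.0 to 64.5 CPM over all samples, were called in neither pair, and their 95% intervals were -0.17 to 0.32 and -0.25 to 0.07 in TRACK over WT.

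Among the mitosis members, Mki67, the Ki-67 antigen used to count cycling cells, was 0.915, 1.10, 1.33, 1.49 and 0.946 CPM in WT and 2.64, 3.07, 2.91, 0.603 and 0.705 CPM in GCERAd. It was 1.89, 1.88 and 2.93 CPM in TRACK and 4.07, 4.56, 2.65 and 2.98 CPM in GCERAdT. All 3 TRACK samples lay above all WT samples, while GCERAd 1 to 3 lay in the range of the transgene groups and GCERAd 4 and 5 below every WT sample. On the log2 scale the change was 0.95 in TRACK over WT (SE 0.43, adjusted p = 0.0941). Between GCERAdT and GCERAd it was 0.84 (SE 0.39, adjusted p = 0.148), neither past the threshold. In the average it was 0.90 (SE 0.29, adjusted p = 0.0237), or 1.86-fold, a call lost without TRACK 3 (adjusted p = 0.0708) and with mouse number as a block (0.0838).

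Top2a, the topoisomerase that untangles the chromosomes before they part, was 0.525, 0.593, 0.952, 0.855 and 0.432 CPM in WT and 1.23, 0.733, 1.28, 0.83 and 0.441 CPM in GCERAd. It was 1.30, 1.51 and 1.87 CPM in TRACK and 1.95, 1.06, 1.80 and 2.36 CPM in GCERAdT. TRACK samples lay above every WT sample, and GCERAdT 2 lay below the 2 highest GCERAd samples. The log2 fold change was 1.22 in TRACK over WT (SE 0.36, adjusted p = 0.0149), lost without TRACK 3 (adjusted p = 0.0628). In GCERAdT over GCERAd it was 0.99 (SE 0.33, adjusted p = 0.0460), lost without GCERAd 2, 4 or 5 or without GCERAdT 1, 3 or 4 (adjusted p 0.0728 to 0.121). With mouse number as a block it was 0.84 (adjusted p = 0.0617) over all samples and 0.79 (adjusted p = 0.0803) over these groups alone. The average was 1.10 (SE 0.25, adjusted p = 0.00221) and was kept without any 1 library. Tpx2, which nucleates microtubules of the spindle, was 0.705, 0.627, 0.377, 0.446 and 0.465 CPM in WT and 0.546, 0.533, 0.937, 0.377 and 0.282 CPM in GCERAd. TRACK samples had 0.974, 0.806 and 0.733 and GCERAdT samples 0.491, 1.21, 0.807 and 1.37 CPM. TRACK samples lay above every WT sample, GCERAdT overlapped GCERAd, and Tpx2 was called in the average alone, 0.76 (SE 0.28, adjusted p = 0.0449), a call lost without any 1 of 13 libraries and with mouse number as a block (adjusted p = 0.142).

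The other 9 mitosis members tested were called in neither pair nor in the average. They were the kinase genes Bub1b, Aurka, Aurkb and Plk1, Birc5 (survivin), Cdc20, which activates the complex that starts anaphase, the centromere genes Cenpe and Cenpf, and Kif11, a spindle motor. Their log2 fold changes ran from -0.27 for Bub1b to 1.20 for Cenpe in TRACK over WT and from -0.02 for Aurka to 0.82 for Aurkb in GCERAdT over GCERAd, and the 95% intervals in TRACK over WT ran from a lower end of -1.04 for Bub1b to an upper end of 2.28 for Cenpe. Of the 12 mitosis members tested, 11 had a positive value in TRACK over WT and 11 in GCERAdT over GCERAd, against 8100 and 8270 of all 16492 genes. The transcription factors were called in neither pair: Foxm1, which drives genes of G2 and mitosis, was 0.170 to 1.93 CPM and E2f1 was 1.74 to 4.28 CPM over all samples, and E2f1 had a log2 fold change of 0.58 in TRACK over WT (SE 0.23, adjusted p = 0.0594).

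**Figure D3:**
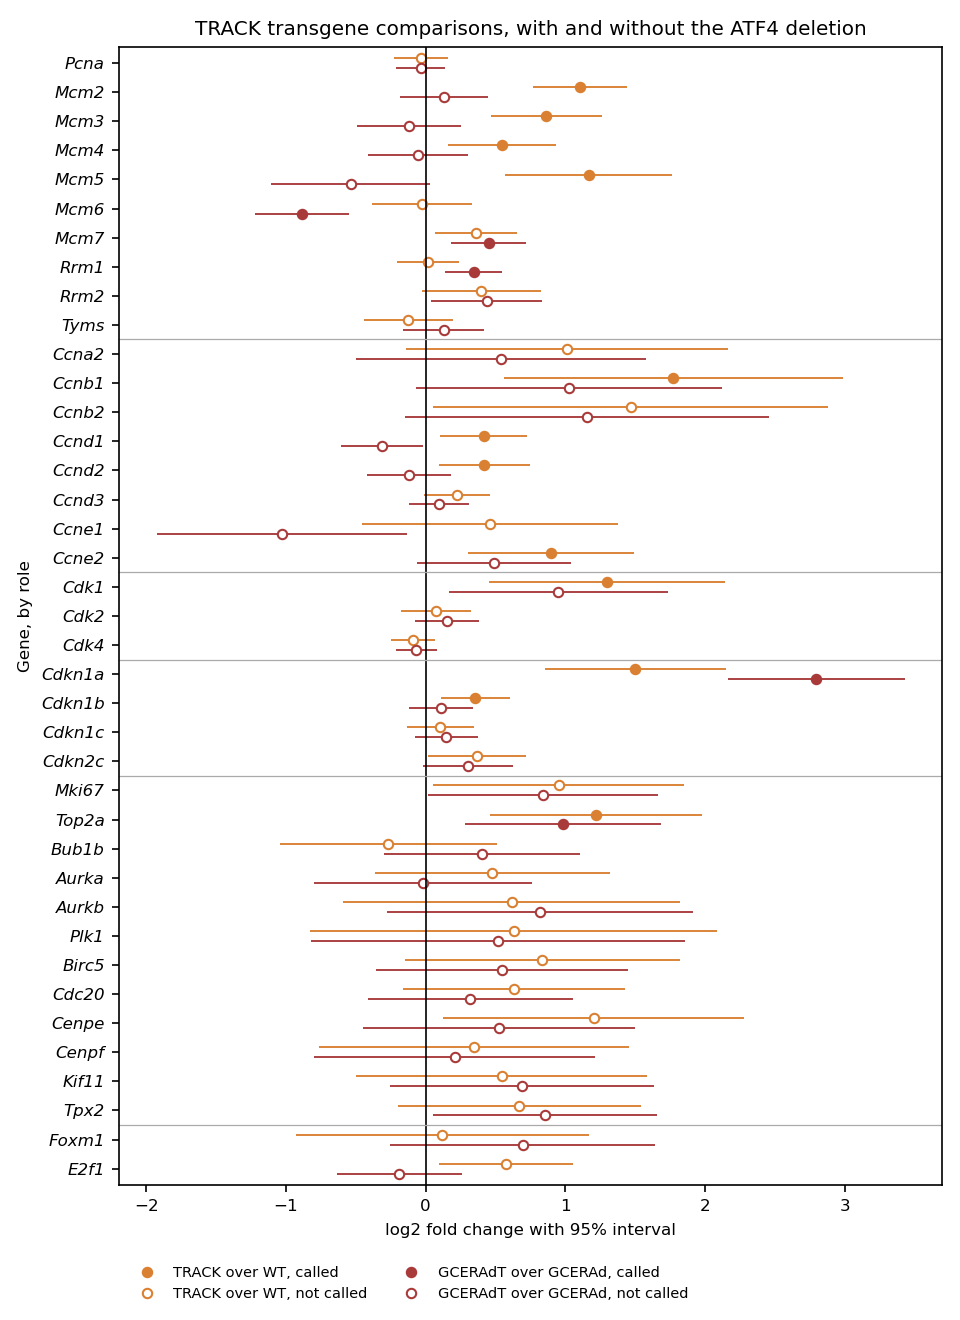
Log2 fold change of the 39 cell cycle genes tested, with 95% intervals, in TRACK over WT (orange) and GCERAdT over GCERAd (red), filled where the adjusted p was at most 0.05. Most mitosis and cyclin B points lie right of 0 with wide intervals, Mcm2 to Mcm5 are filled in TRACK over WT alone, and Cdkn1a and Top2a are filled in both.

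The mitosis members summed to 5.99 to 8.75 CPM in WT, 11.4 to 13.5 CPM in TRACK and 15.3 to 18.2 CPM in GCERAdT. In GCERAd they summed to 13.4, 14.2 and 15.0 CPM in GCERAd 1 to 3 and to 7.21 and 6.38 CPM in GCERAd 4 and 5, so the group without the transgene held both a range near TRACK and a range near WT. The sum of the helicase genes split GCERAd the other way: GCERAd 4 and 5, with sums of 72.5 and 67.8 CPM, lay above GCERAd 1 to 3, with 57.8 to 60.7 CPM. This did not hold for each gene. Mcm6 was lower in GCERAd 4 and 5 than in GCERAd 1 to 3, and Mcm5 of GCERAd 5 lay within their range. Which members were called in GCERAdT over GCERAd changed with the GCERAd libraries kept. Without GCERAd 4 and 5, 9 members were called, 8 higher and 1 lower, against 12.6% and 12.1% of all genes in the same fit, up from 8.50% and 10.4%. Of these, 4 were among the 5 called with all samples (Cdkn1a, Mcm6, Mcm7 and Rrm1) and the added were Cdkn1b, Cdkn1c, Mcm2, Rrm2 and Tyms. Without GCERAd 1 to 3, 9 members were also called, 8 higher and 1 lower, against 7.39% and 8.39% of all genes. Of these, 3 were among the 5 (Cdkn1a, Mcm6 and Top2a) and the added were Ccna2, Ccnb2, Cdk1, Cenpe, Mki67 and Tpx2. Cdkn1a and Mcm6 were called in either case. GCERAd 3, 4 and 5 have the higher pseudogene share and GCERAd 1 and 2 the lower. Whether the split of the cell cycle genes goes with that share was not tested.

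**Figure D4:**
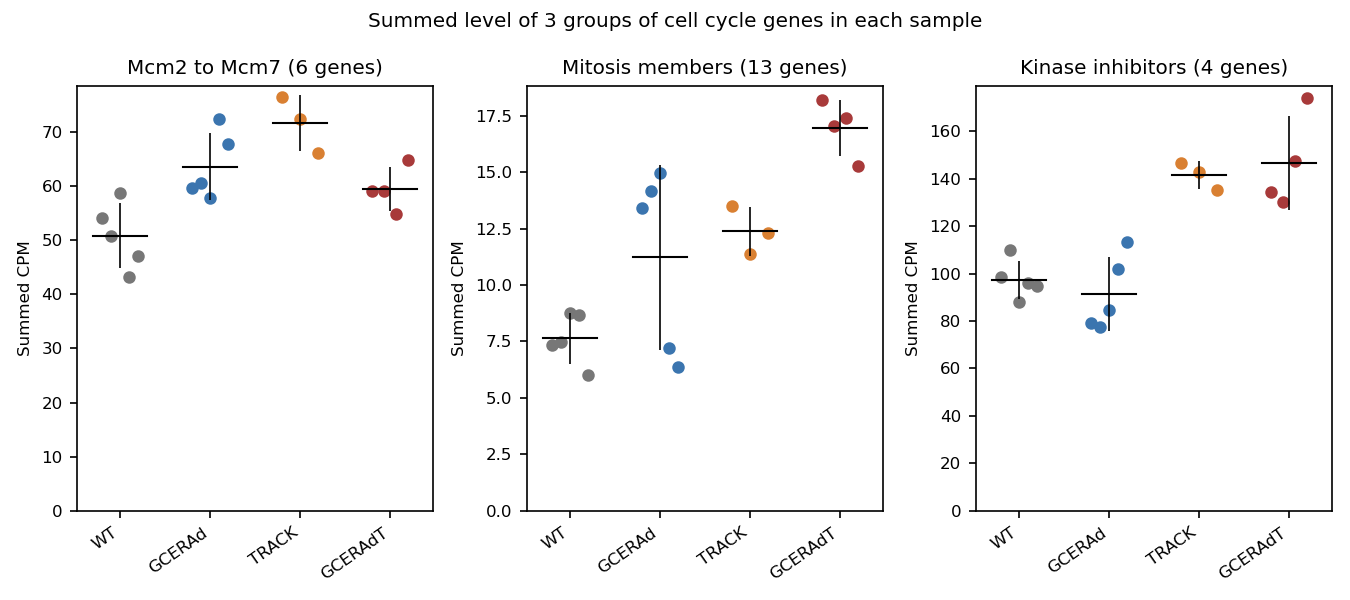
Summed CPM of Mcm2 to Mcm7, of the 13 mitosis members and of the 4 kinase inhibitors in each sample, with group means and bars of ± 1 SD, all axes from 0. TRACK has the highest mean helicase sum (samples at 66.2 to 76.4, overlapping GCERAd) and GCERAdT the highest mitosis sums (15.3 to 18.2), and GCERAd splits into a higher and a lower part for both.

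Few members were called between groups that differ in the ATF4 label. In GCERAd over WT 3 were higher, Mcm2 with 0.64 (SE 0.14, adjusted p = 0.00312), Mcm5 with 0.83 (SE 0.26, adjusted p = 0.0228) and Cenpe, a motor of the centromere, with 1.57 (SE 0.46, adjusted p = 0.0183), and 2 were lower, Rrm1 with -0.27 (SE 0.09, adjusted p = 0.0415) and Cdkn1a, against 12.7% higher and 11.3% lower among all genes. These groups differ in Xist and Ddx3y as well. GCERAd mice also carried Ggt/CreER and received tamoxifen, which is not given for WT mice. The count of 5 was 3 without WT 1, 2 or 5, 2 without GCERAd 2 and 9 without GCERAd 4 and 5, and only Mcm2 kept its call without any 1 library. Cenpe was 3.29, 3.58, 2.55, 0.396 and 1.04 CPM in GCERAd 1 to 5 against 0.509 to 1.01 CPM in WT, and its value without GCERAd 1 to 3 was -0.03 (adjusted p = 0.966). In GCERAdT over TRACK no member was higher and 1, Mcm6, was lower, against 1.79% and 2.84% of all genes. The count was 0 without TRACK 1, GCERAdT 1 or GCERAdT 3 and 2 without GCERAdT 4. For neither comparison were the shares of all genes computed with these libraries left out. Since WT was the group with Xist, TRACK was also set against GCERAd, a comparison chosen after the data were seen, in which Ddx3y was present on both sides and the ATF4 label differed. There 5 members were higher and none was lower, against 10.2% and 11.1% of all genes: Cdkn1a with 2.36 (SE 0.31, adjusted p = 9.41e-05), Rrm2 with 0.72 (SE 0.20, adjusted p = 0.0166), Ccnd3 with 0.48 (SE 0.11, adjusted p = 0.00438), Mcm2 with 0.47 (SE 0.16, adjusted p = 0.0469) and Cdkn1c with 0.38 (SE 0.12, adjusted p = 0.0237). This comparison shares samples with both pairs above. Mki67 was 0.17 there (SE 0.43, adjusted p = 0.818), and Cdk1 was 0.92 (SE 0.40, adjusted p = 0.114).

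Further genes of the cycle were taken from lists that hold none of the 40. Of 63 other G2 and M genes tested, 13 were higher and 3 lower in TRACK over WT, and 9 were higher and none lower in GCERAdT over GCERAd, with medians of 0.46 and 0.49 on the log2 scale. That is 20.6% and 14.3% higher, against 17.1% and 8.50% of all genes, the first close to the background. In the average 19 were higher and none lower, against 15.5% and 17.0% of all genes. The 3 with the largest values were Psrc1, which acts on spindle microtubules, with 2.37 (SE 0.40, adjusted p = 1.88e-04), Nuf2, a kinetochore subunit, with 1.94 (SE 0.40, adjusted p = 0.00119), and Ckap2, a spindle protein, with 1.86 (SE 0.29, adjusted p = 8.97e-05). All 3 were higher without overlap in each pair. Of 54 other S phase genes, 15 were higher and 2 lower in TRACK over WT, and 2 were higher and 4 lower in GCERAdT over GCERAd, with medians of 0.21 and -0.01. The shares higher were 27.8% and 3.70%, against 17.1% and 8.50% of all genes, so that the second lay below the background. In the average the largest values were those of Brca1, which acts in DNA repair, with 1.77 (SE 0.27, adjusted p = 8.56e-05), Dtl, which directs the breakdown of the licensing factor Cdt1, with 1.55 (SE 0.44, adjusted p = 0.0120), and Gins2, a part of the replication helicase, with 0.98 (SE 0.20, adjusted p = 0.00128). Prim1, the primase subunit, was lower, with -0.51 (SE 0.13, adjusted p = 0.00725). Dtl had 3.40 in TRACK over WT and -0.30 in GCERAdT over GCERAd.

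Of 29 regulators of the step from G1 to S, 6 were higher and 2 lower in TRACK over WT and 2 were higher and 4 lower in GCERAdT over GCERAd. These shares, 20.7% and 6.90% higher and 6.90% and 13.8% lower, were near those of all genes for the higher calls (17.1% and 8.50%), and the lower calls of all genes were 16.2% and 10.4%. The largest in the average were Myc, a growth-promoting transcription factor, with 1.65 (SE 0.22, adjusted p = 4.74e-05), E2f3 with 0.45 (SE 0.11, adjusted p = 0.00444) and Cdk6 with 0.36 (SE 0.07, adjusted p = 8.47e-04); the lowest were Rbl1, a relative of the retinoblastoma protein, with -0.41 (SE 0.10, adjusted p = 0.00354), Lin52 with -0.29 (SE 0.08, adjusted p = 0.00912) and E2f6 with -0.28 (SE 0.06, adjusted p = 0.00148). Myc was 22.4, 22.5 and 18.1 CPM in TRACK and 22.9, 18.1, 19.3 and 27.2 CPM in GCERAdT, against 2.59 to 8.70 CPM in WT and 5.96 to 12.8 CPM in GCERAd. The 7 transgene samples lay above the 10 others, an order whose share among all genes was not computed. Of 24 p53 targets other than Cdkn1a, 10 were higher and none lower in TRACK over WT, and 9 were higher and 1 lower in GCERAdT over GCERAd, or 41.7% and 37.5% higher against 17.1% and 8.50% of all genes. The largest in the average were Eda2r, a receptor gene, with 2.43 (SE 0.26, adjusted p = 1.59e-06), Gdf15, a stress-induced cytokine, with 1.03 (SE 0.13, adjusted p = 1.28e-05) and Btg2, an antiproliferative gene, with 0.93 (SE 0.08, adjusted p = 8.56e-08). Mdm2, the p53 target that limits p53, was 31.1 to 40.6 CPM in the transgene groups and 29.8 to 39.5 CPM in the others, and was named after its values were seen.

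**Figure D5:**
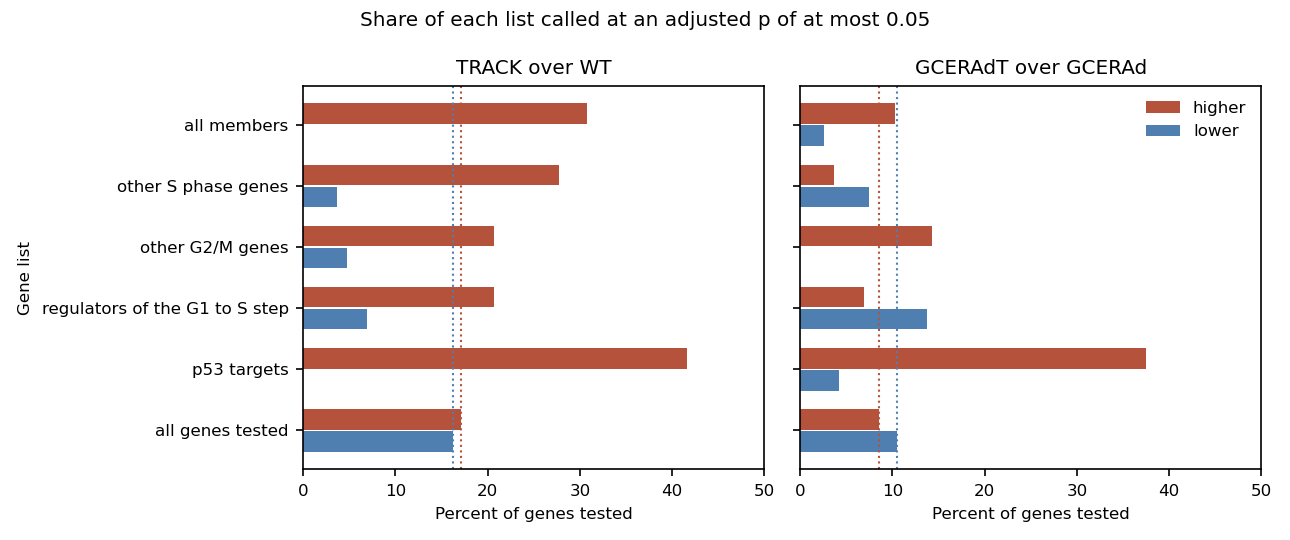
Percent of the genes tested in each list that were higher (red) or lower (blue) at an adjusted p of at most 0.05, in TRACK over WT and in GCERAdT over GCERAd, with dotted lines at the shares of all 16492 genes. The cell cycle members reach 30.8% higher in TRACK over WT and 10.3% in GCERAdT over GCERAd, and the p53 targets 41.7% and 37.5%.

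Markers of other cell types differed between groups as well, in part with the transgene and in part between WT and every other group. Among all genes, 17.1% were higher and 16.2% lower in TRACK over WT, and 8.50% and 10.4% in GCERAdT over GCERAd. All 3 endothelial markers were higher in both pairs, and their sum was 161 to 190 CPM in WT, 188 to 218 in GCERAd, 297 to 329 in TRACK and 252 to 272 in GCERAdT. The 3 B cell markers summed to 0.830 to 1.26 CPM in WT, 0.831 to 2.13 in GCERAd, 1.89 to 2.94 in TRACK and 2.97 to 3.98 in GCERAdT, and 1 and 2 of the 3 were higher in the pairs. Of 2 erythroid markers tested, both were higher in TRACK over WT and none passed in GCERAdT over GCERAd. The erythroid sum was 55.2 to 96.3 CPM in WT, 113 to 194 in GCERAd, 128 to 340 in TRACK and 119 to 250 in GCERAdT. Fibroblast and pericyte markers were higher for 2 of 3 in TRACK over WT and none of 3 in GCERAdT over GCERAd, and none of the T cell, macrophage or neutrophil markers passed in either pair. The fibroblast and pericyte sum was 50.1 to 54.6 CPM in WT, 65.4 to 94.4 in GCERAd, 80.8 to 134 in TRACK and 60.4 to 80.1 in GCERAdT. Of 7 markers of injured tubules, 4 were higher in TRACK over WT and 2 in GCERAdT over GCERAd, while their sum, most of it Spp1, was 1399 to 1639 CPM in WT and 557 to 1588 CPM in the others. Havcr1, which encodes the injury molecule KIM-1, was 12.2 to 21.8 CPM in TRACK and 26.0 to 34.6 CPM in GCERAdT against 0 to 0.481 CPM in WT and 0.582 to 7.97 CPM in GCERAd, named after its values were seen. The proximal tubule markers, which define most of the cortex, summed to 12996 to 16972 CPM in WT and 20121 to 45922 CPM in the others, with Kap, which androgen induces, alone at 5249 to 35826 CPM, and of the 8, 2 were higher and 4 lower in TRACK over WT and 4 lower in GCERAdT over GCERAd. Of 8 markers of the thick ascending limb, distal convoluted tubule and collecting duct, 6 were lower and none higher in TRACK over WT and none was called in GCERAdT over GCERAd, and of 2 podocyte markers 1 was higher in the latter. Principal cell markers of the collecting duct summed to 523 to 637 CPM in WT, 136 to 329 in GCERAd, 233 to 287 in TRACK and 116 to 245 in GCERAdT. Intercalated cell markers summed to 115 to 143 CPM in WT, 78.7 to 99.0 in GCERAd, 93.2 to 109 in TRACK and 69.1 to 96.7 in GCERAdT. None of 3 adipocyte markers was called. No marker of the lists was at 0 in every sample. Adipoq, Plin1 and Havcr1 were among those at 0 in some. The part of these cells in the cell cycle values was not tested.

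The promoters of members that moved are shown for the cell cycle words they carry. Windows from 250 bases before to 50 after the start were found in the RefSeq table (GRCm38.p6) for 31 of the 40 members, 35 windows in all. Words were searched on both strands: TTTCCCGC, TTTGGCGC, TTTCGCGC and TTTGCCGC for E2F factors, TTTGAA and TTTAAA for the cell cycle homology region (CHR), which is known from late cycle genes, and CCAAT for the CCAAT box. No word lies inside another. E2F words were in 4 of 10 windows of S phase members and in none of 11 of mitosis members, against 2.26% of 32851 windows. CHR words were in 3 of 10 and 10 of 11 of these, against 27.6%, and CCAAT in 9 of 10 and 10 of 11, against 37.4%. A word is a description of the letters and not a site in use. The windows of 5 genes follow, read from 5′ to 3′ on the gene's strand, with words in capitals, a word on the other strand appearing as its reverse complement. Each is the window nearest the start of the annotated gene. Windows at other starts of a gene, where there are any, are not shown. Cdkn1a and Top2a were called higher in both pairs, Mcm2 in TRACK over WT and Cdk1 in the average. Mcm6 was lower in GCERAdT over GCERAd. The Top2a call in GCERAdT over GCERAd was lost under 15 of 23 alternatives.
Cdkn1a (chr17:29090729-29091028, plus strand): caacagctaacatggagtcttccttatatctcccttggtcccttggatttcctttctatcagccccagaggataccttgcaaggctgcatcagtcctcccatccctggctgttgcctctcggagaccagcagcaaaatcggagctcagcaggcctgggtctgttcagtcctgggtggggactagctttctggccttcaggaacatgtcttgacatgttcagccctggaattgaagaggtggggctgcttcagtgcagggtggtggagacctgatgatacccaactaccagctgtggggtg
Mcm2 (chr6:88898731-88899030, minus strand): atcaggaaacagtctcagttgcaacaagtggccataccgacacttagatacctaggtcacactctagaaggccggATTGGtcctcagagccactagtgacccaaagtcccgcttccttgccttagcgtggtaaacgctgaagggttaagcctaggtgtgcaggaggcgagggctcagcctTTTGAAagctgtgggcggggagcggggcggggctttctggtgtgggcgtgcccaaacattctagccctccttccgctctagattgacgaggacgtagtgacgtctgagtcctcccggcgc
Mcm6 (chr1:128359656-128359955, minus strand): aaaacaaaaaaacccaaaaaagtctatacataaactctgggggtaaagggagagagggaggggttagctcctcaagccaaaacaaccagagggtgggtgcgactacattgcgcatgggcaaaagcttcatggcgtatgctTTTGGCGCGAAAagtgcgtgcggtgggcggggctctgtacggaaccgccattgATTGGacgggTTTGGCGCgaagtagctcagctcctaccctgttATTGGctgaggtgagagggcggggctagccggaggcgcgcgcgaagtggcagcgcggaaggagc
Cdk1 (chr10:69352863-69353162, minus strand): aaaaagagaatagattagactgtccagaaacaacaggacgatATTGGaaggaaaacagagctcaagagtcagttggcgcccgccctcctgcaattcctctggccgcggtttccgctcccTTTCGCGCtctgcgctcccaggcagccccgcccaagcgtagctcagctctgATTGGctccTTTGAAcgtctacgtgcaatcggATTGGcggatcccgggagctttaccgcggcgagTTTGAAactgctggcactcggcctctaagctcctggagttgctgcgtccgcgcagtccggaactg
Top2a (chr11:99024140-99024439, minus strand): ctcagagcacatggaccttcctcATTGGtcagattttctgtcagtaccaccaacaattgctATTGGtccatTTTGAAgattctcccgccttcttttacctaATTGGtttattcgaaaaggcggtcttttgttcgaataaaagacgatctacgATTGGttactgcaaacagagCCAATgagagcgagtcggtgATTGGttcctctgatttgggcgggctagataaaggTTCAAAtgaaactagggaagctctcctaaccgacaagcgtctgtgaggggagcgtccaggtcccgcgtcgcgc

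The window shown for Cdkn1a held none of the words, that of Mcm2 a CCAAT and a TTTGAA word, and that of Mcm6 3 E2F words, 2 of them overlapping, with 2 CCAAT words. Cdk1 had an E2F word 131 bases before the start, 2 TTTGAA words 71 and 15 bases before it and 3 CCAAT words. Top2a had 2 TTTGAA words, 179 and 23 bases before the start, and 6 CCAAT words. Mcm2, Cdk1 and Top2a thus each held CHR and CCAAT words, and Mcm6 and Cdk1 each held E2F and CCAAT words.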

How the data were processed

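RNA of kidney cortex from 17 mouse samples was sequenced as poly-A selected, stranded libraries with paired ends. The deposited values are whole-number counts per gene that the authors made with bcl2fastq 2.20, Cutadapt 3.5, STAR 2.7.9a to GRCm38 and HTSeq-count 0.13.5. The annotation release and the settings for strand and shared reads are not given in the sources used here. The authors pooled no libraries, and 663 genes had no name.

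Groups came from the sample labels. All 17 samples entered 1 fit with edgeR 4.0.16 in R 4.3.3 (TMM scaling, robust quasi-likelihood test) on the 16492 genes with a mean of at least 10 counts. P-values are two-sided, adjusted by Benjamini and Hochberg over these genes and called at 0.05. This adjustment covers each comparison by itself. CPM used TMM-scaled totals, and FPKM used exon lengths of 48349 genes. Totals of 53688512 to 71364561 counts limit the precision of genes with few counts. The study itself compared 2 groups at a time with DESeq2 on genes of at least 1 FPKM. That procedure was not run as a whole, and its parts were run here as separate alternatives. DESeq2 was fitted over all groups on the same 16492 genes. The minimum of 1 FPKM and the fits of only the groups compared used edgeR. Other alternatives, in edgeR, were RLE scaling, other minimums, mouse number as a block, the pseudogene share as a covariate and leaving out each library. In a further one, possible repeat libraries were summed, WT 1 with WT 2 and GCERAd 2 with GCERAd 3. Fits without GCERAd 4 and 5, without GCERAd 1 to 3, within either range of the pseudogene share, without WT, of GCERAd and GCERAdT alone with the block, and TRACK over GCERAd were added after the data were seen. The procedure was tested on simulated data.

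The members and all gene lists were chosen with earlier results of these data known. Values in every sample are given for members called in either pair or in their average and for Mki67, Top2a, Pcna, Cdk1, Ccnb1, Ccnd1, Cdkn1a and Cdkn1b, and ranges for the rest. Of the other lists, the 3 genes with the largest change in each direction among those called in the average are named. Some genes that this rule or the marker lists would name are not reported here. The deviations of same-numbered samples from their group means correlated at 0.36 to 0.44 in all 4 pairs of GCERAd and GCERAdT. Some samples of unlike number correlated to a like degree, GCERAd 1 with GCERAdT 2 at 0.38 and GCERAd 5 with GCERAdT 4 at 0.35, while others were negative. GCERAdT 1 correlated best with GCERAd 2. Numbers 1 and 2 have the lower and 3 and 4 the higher pseudogene share in both, except that GCERAd 3 and 4 share it with GCERAd 5. The labels do not say that these mice were paired. In no other pair of groups were all pairs over 0.1. No pair of samples had counts that agreed within sampling noise. Promoter windows are those of RefSeq for GRCm38.p6.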

Additional observations from a re-analysis of the deposited data

Results flagged for a closer look

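In each group of 4 or 5 samples, the highest and lowest sample of each member were set against the rest by Dixon's criterion, 120 pairs of member and group in all. Chance marks about 1 in 20 such groups, and 6 were marked. They were Mcm5 in GCERAd 4 with 6.52 CPM, Tyms in WT 5 with 12.8 CPM, Ccnb1 in WT 4 with 0.260 CPM, Cdkn1a in GCERAdT 4 with 75.1 CPM, Cdkn1b in WT 2 with 55.0 CPM and Cdc20 in GCERAdT 3 with 0.807 CPM. Without the sample in question, Cdkn1a kept its call in GCERAdT over GCERAd, and Ccnb1 and Cdkn1b kept theirs in TRACK over WT, while Mcm5 lost its call in GCERAd over WT (0.56 on the log2 scale, adjusted p = 0.0862 in edgeR).

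The change between TRACK and WT differed from that between GCERAdT and GCERAd, by the test of the difference itself in edgeR, for 6 members. These pairs differ in the ATF4 label, while Atf4 counts did not tell GCERAdT from TRACK. On the log2 scale, GCERAdT over GCERAd minus TRACK over WT was -0.97 for Mcm2, -0.98 for Mcm3, -1.70 for Mcm5, -0.86 for Mcm6, -0.73 for Ccnd1 and 1.29 for Cdkn1a. These were 5 lower and 1 higher of 39 members, against 10.8% and 8.70% of all genes. The share called lower was thus near the background. With the libraries of the higher pseudogene share alone none of the 39 members passed this test. The contrast in WT and TRACK also carries the differences in Xist, Ddx3y and pseudogene range, and their part in these values cannot be told apart.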

How the results depend on the processing

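Of 1037 values of single genes under alternatives, 810 kept their direction and side of the threshold, 226 kept the direction and lost the call, and 1 reversed: Cenpe in GCERAd over WT, -0.0329 with GCERAd 1 to 3 left out. The count of members called in TRACK over WT was 12, and 6 with the pseudogene share as a covariate (4 of them among the 12); 5 to 13 were called when 1 library was left out. In GCERAdT over GCERAd the count was 5, and 9 both without GCERAd 4 and 5 and without GCERAd 1 to 3, and 4 to 5 when 1 library was left out. The average gave 15 (10 to 19 when 1 library was left out) and the difference 6 (4 to 6). GCERAd over WT gave 5, with DESeq2 8, with no minimum 3, with at least 50 counts 8, with only the groups compared 2, with repeat libraries summed 2, without GCERAd 4 and 5 9, and 2 to 7 when 1 library was left out. GCERAdT over TRACK gave 1, with DESeq2 5, with only the groups compared 2, with repeat libraries summed 0, and 0 to 2 when 1 library was left out. With the higher pseudogene share alone, which left 1 WT, 3 GCERAd, 3 TRACK and 2 GCERAdT samples, the counts in this order were 0, 1, 1, 0, 0 and 0, the 1 being Cdkn1a; the lone WT sample was assumed to vary like the other groups, and fewer samples entered. With the lower share alone there was no TRACK sample, and no comparison with that group could be made. There GCERAdT over GCERAd gave 6, of which 4 (Cdkn1a, Mcm6, Mcm7 and Rrm1) were among those called with all samples, with Ccnd1 and Tyms added. Top2a was 0.63 on the log2 scale (adjusted p = 0.457 in edgeR). GCERAd over WT gave 7, of which 2 (Cenpe and Mcm2) were among those called with all samples, with Ccna2, Ccnd3, Cdkn1c, Mki67 and Tyms added. The cause of the other changes was not tested. Shares of all genes called were computed for the main fits and, in GCERAdT over GCERAd, for the fits that split GCERAd. For all other alternatives, the block included, they were not computed. A change in these counts is therefore not a result about the cell cycle genes.

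With mouse number as a replicate block, the counts were 12, 4, 11, 7, 6 and 3; the last was 1 without it. In GCERAdT over GCERAd, the groups whose same-numbered samples correlated, the block lost Top2a. Over these groups alone it gave 5, with 4 of the 5 called without it (Cdkn1a, Mcm6, Mcm7 and Rrm1) and Ccnd1. In TRACK over WT 10 of the 12 were shared, and in the average 11 of the 15, without Ccnb2, Cdkn2c, Mki67 and Tpx2. Over all groups, 5 of 22 same-numbered pairs had a correlation over 0.1 (range -0.53 to 0.44), 4 of them between GCERAd and GCERAdT, so in the other groups the samples share only a number. Depth limits genes of few counts, such as Ccnb1 with 6 to 14 counts per WT library.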
